A study of Arabidopsis thaliana with 33 samples.

Results

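Buds of the Arabidopsis thaliana mutant ap3 were compared with wild-type buds of the same age on 4 of the series' 33 arrays. These were all the arrays whose labels name ap3 early stages, and no measured value was used to choose them. Each array was hybridised with RNA of ap3 inflorescence meristems with their young buds, the oldest at early stage 10 since older flowers had been removed, together with RNA of wild-type meristems and buds dissected in the same way. The ap3 RNA was in channel 1 (Cy3) in replicates 1 and 4 and in channel 2 in replicates 2 and 3. A further pair of mutants served for comparison, with 4 arrays each: nzz (spl/nzz) and ms1, each set against wild type, with meristems and buds up to stage 13. All plants were grown on a soil mixture at 20 °C under constant light, and each sample pooled tissue of 50 plants. The sources used here name neither the alleles nor the background strain of the plants. Neither is it settled whether all 4 ap3 arrays came from separate tissue samples, since the labels promise at least 3, so part of the spread between arrays may be technical. The error of each probe was estimated from the 12 arrays of the 3 mutants together, and p-values measure the spread among those 12, not among the 4 ap3 arrays alone.

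APETALA3 (AP3) is a MADS-box transcription factor that acts as a heterodimer with PISTILLATA. The pair carries the B function of flower development, which specifies petals in the second whorl of the flower and stamens in the third. In strong ap3 mutants sepals form in place of petals and carpel-like organs in place of stamens, so the anther is missing with the tissues inside it, namely the tapetum that feeds the microspores, the meiocytes and the pollen. The study used ap3 to find transcripts of early stamen development. In whole buds, fewer cells of a type and less RNA per cell cannot be told apart.

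The values are log2 ratios of ap3 over wild type, so a negative ratio means lower in ap3. This direction opposes a literal reading of the labels, which name the mutant first, and it is likely rather than settled; under the opposite sign each fall would be a rise and each rise a fall, with every count the same. The choice rests on pollen and tapetum genes in nzz and ms1. Ratios were limited at 100-fold, a log2 size of 6.64 if the deposited logs are to base 10 as read here, and 2.47% to 4.91% of the values of an ap3 array lay at that limit. The array medians lay between -0.02 and 0.03. Arrays with the same dye orientation correlated at r = 0.42 and 0.54 over the 20433 probes without a limited value, while pairs of opposite orientation gave r between -0.13 and -0.0032, so most of the variation shared by arrays followed the dyes. A fitted dye term removed the part of it common to the arrays. Ratios carry no levels, so whether a marker of a tissue was absent from either RNA could not be read from them. AP3 itself has no named probe.

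Of 26017 gene probes tested, 32 were called lower in ap3 (0.123%) and 14 were called higher (0.0538%) at an adjusted p under 0.05 from limma. All 46 had 1 sign on every array, and none had a value at the limit. The median fitted ratio of the lower probes was -1.40, and that of the higher probes was 0.81. Leaving out an array gave 19 calls without replicate 1, 10 without replicate 2, 10 without replicate 3 and 24 without replicate 4. Of the 46 probes, only 12, 9, 8 and 17 stayed called, in the same order. All 46 fitted ratios kept their sign in each case, which their 1 sign on every array largely set in advance. At an unadjusted p under 0.05, 1326 probes were lower (5.1%) and 1190 were higher (4.57%). In all, 2072 probes were negative on every array measured (7.96%) and 2323 were positive on every array (8.93%). A named gene stood behind 21 of the lower calls and 7 of the higher ones.

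AT1G44970 had the largest fall among the named calls. Its log2 ratios were -4.71, -3.19, -3.41 and -2.97 in replicates 1 to 4. Replicate 1 was the lowest, and even the highest array was more negative than the fitted ratio of any other called gene. The fitted ratio was -3.57 ± 0.29, 11.9-fold lower in ap3, with an adjusted p of 0.00259 from limma. Here and below, ± gives the SE from the 12-array fit, with 4 arrays of ap3. The gene table carries this locus, as most of the called ones, without a symbol, so none is given a role here.

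VGD1, a pectin methylesterase that pollen tubes need to grow through the style, was also called lower. It gave log2 ratios of -2.78, -1.54, -1.83 and -3.30 in replicates 1 to 4. Both arrays with ap3 RNA in channel 1 were the more negative, and all 4 were well below 0. The fit gave -2.36 ± 0.35, a 5.13-fold fall with an adjusted p of 0.0484 from limma. VGD1 was called under 4 of 14 alternative settings, with adjusted p-values from 0.0156 to 0.576 in limma. Its homolog VGDH1 had -2.21, -2.06, -2.18 and -3.53, with replicate 4 apart from the other three. With a fitted -2.49 ± 0.41 and an adjusted p of 0.0774, VGDH1 narrowly missed the call. AT2G47050, next to VGD1 on the other side, had a fitted ratio of -1.77 ± 0.32 and an adjusted p of 0.0974. In RefSeq gene order VGDH1, VGD1 and AT2G47050 are adjacent. Long-oligonucleotide probes of close relatives can share signal, which was not tested here.

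A pattern like that of VGD1, with the lowest value in replicate 4, occurred in AT3G07820 and AT5G39880. For AT3G07820 the 4 ratios were -2.63, -2.17, -2.47 and -4.09, fitted at -2.84 ± 0.36 (adjusted p = 0.0244, limma). AT5G39880 had -2.31, -2.23, -2.59 and -4.07, fitted at -2.80 ± 0.42 (adjusted p = 0.0496, limma). In both genes 3 arrays lay close together, and replicate 4 was more negative by over 1 log2 unit. AT1G23350 had -3.44, -1.56, -1.82 and -3.67, so its 2 orientations did not overlap, and it was fitted at -2.62 ± 0.32 (adjusted p = 0.0244, limma).

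Another pattern put replicate 1 lowest. AT1G33430 had -4.34, -2.15, -1.76 and -2.21, and AT1G73890 had -3.10, -2.30, -2.03 and -2.19. Their fitted ratios were -2.62 ± 0.36 (adjusted p = 0.0371, limma) and -2.40 ± 0.25 (adjusted p = 0.0132, limma). AT2G28140, AT3G10720 and AT5G48490 shared this order on a smaller scale, with fitted ratios of -1.06, -0.78 and -0.59. Over the 32 probes called lower, replicate 1 held the lowest value in 18 (56.2%), against 26.1% of all probes measured on 4 arrays.

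The probe of AT3G18900 had ratios of -2.78, -1.77, -2.59 and -2.50. Its fitted ratio was -2.41 ± 0.12, a 5.32-fold fall (adjusted p = 7.81e-05, limma). Another probe of the same locus gave 0.04 ± 1.44, so the gene's change rests on 1 of its 2 probes. The lowest adjusted p of all belonged to a probe that is unnamed here, A019459_01, with ratios of -2.33, -2.19, -2.02 and -2.21 and a fitted -2.19 ± 0.07 (adjusted p = 3.21e-06, limma). The unnamed probe A005205_01 followed, with -2.94, -2.27, -2.39 and -2.37 and a fitted -2.49 ± 0.10 (adjusted p = 2.03e-05, limma). The 4 arrays of A019459_01 lay close together, while AT3G18900 was less negative in replicate 2 than in the others.

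THI2.1 encodes a thionin, a small antimicrobial peptide whose gene responds to jasmonate. Its ratios were -1.06, -1.48, -2.49 and -1.01, with replicate 3 the lowest. The fitted ratio was -1.51 ± 0.20, a 2.84-fold fall (adjusted p = 0.0322, limma). Among the 12 measured thionin, defensin and pathogenesis genes it was the only one called, and the median of the list was 0.21. The defensin gene PDF1.2 had a fitted 0.21 ± 0.11, and LCR27, a relative of pollen-coat peptides, had 2.92 ± 1.39. Neither had an adjusted p under 0.05 in limma. LCR27 lay at the positive limit in replicate 2 and at 3.78 in replicate 3, but at 0.48 and 0.76 in replicates 1 and 4. Its size thus followed the dye orientation.

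The other named genes called lower fell by less. AT2G43620 had -1.08, -1.25, -1.69 and -1.49, fitted at -1.38 ± 0.19, and AT5G62360 had -0.90, -0.90, -1.52 and -0.81, fitted at -1.04 ± 0.15. AT4G14620 had -1.47, -0.49, -0.69 and -1.32, with both channel 1 arrays the lower, and was fitted at -0.99 ± 0.12. AT3G23880 was fitted at -0.99 ± 0.15, AT5G49120 at -0.75 ± 0.08 and AT3G16590 at -0.65 ± 0.08. The smallest falls were those of AT2G39850 (-0.57 ± 0.07), AT1G49750 (-0.42 ± 0.06) and AT1G64380 (-0.39 ± 0.06). The arrays of AT2G39850 gave -0.58, -0.65, -0.45 and -0.59, all within a narrow range below 0.

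**Figure D1:**
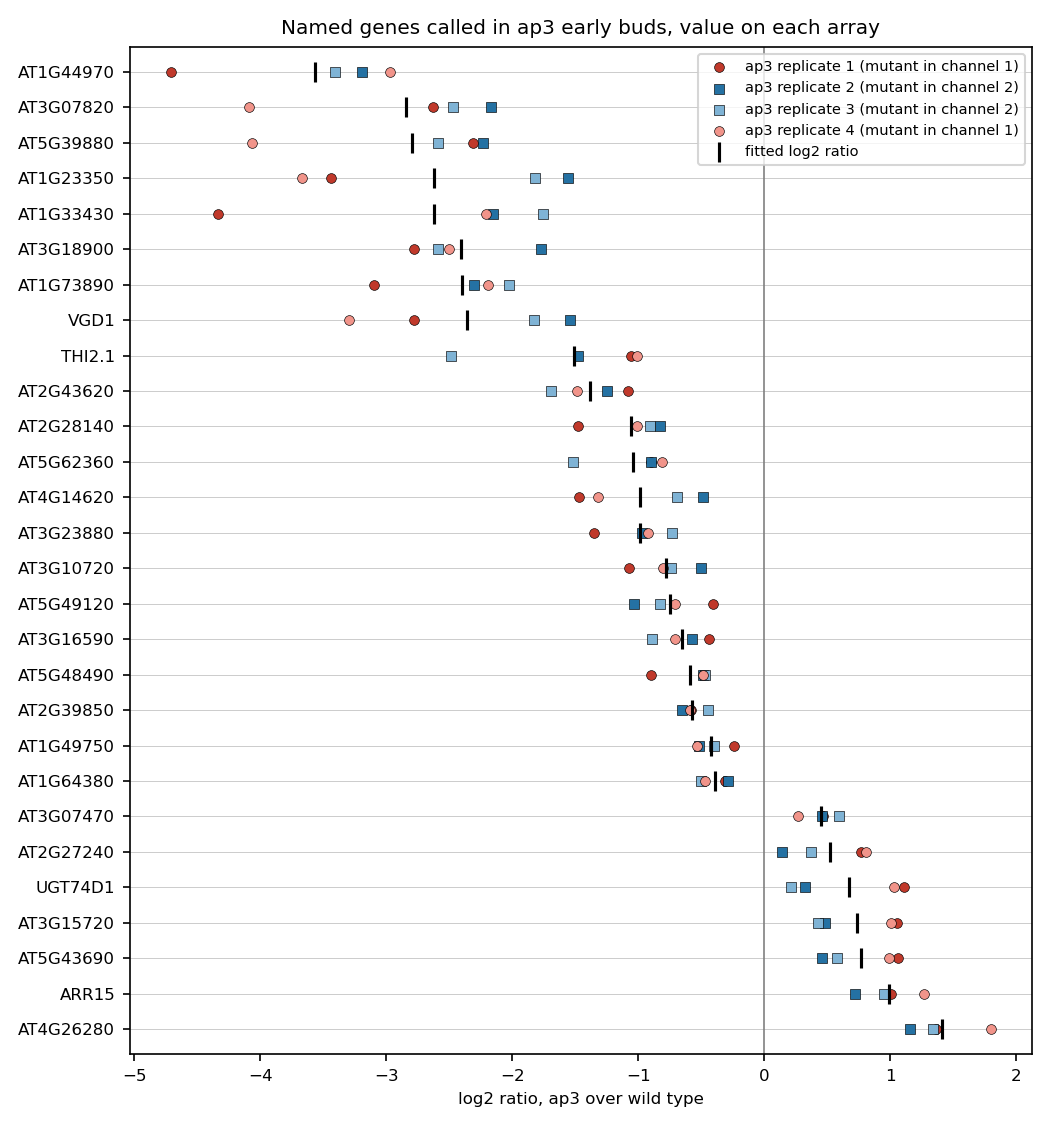
Log2 ratio of ap3 over wild type (horizontal axis) of the 28 named genes called in ap3, 1 row per gene. Circles are arrays with ap3 RNA in channel 1, squares arrays with it in channel 2, and the bar is the fitted ratio; every gene has 4 values on 1 side of 0, and AT1G44970 reaches -4.71 in replicate 1.

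Higher calls were fewer and smaller. ARR15, a type-A response regulator that cytokinin induces and that damps the cytokinin response, had ratios of 1.01, 0.72, 0.95 and 1.27. All 4 arrays were close to each other, and the fitted ratio was 0.99 ± 0.11, a 1.99-fold rise (adjusted p = 0.0176, limma). It was the only measured gene of the cytokinin list. UGT74D1, a glycosyltransferase that conjugates auxins with glucose, had 1.11, 0.32, 0.21 and 1.03. The values were higher where ap3 RNA was in channel 1, with no overlap between the orientations, and the fitted ratio was 0.67 ± 0.09 (adjusted p = 0.0347, limma).

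The largest rise of a named gene was that of AT4G26280, with ratios of 1.36, 1.16, 1.34 and 1.80 and a fitted 1.41 ± 0.12, 2.67-fold higher (adjusted p = 0.00417, limma). AT5G43690 had 1.06, 0.46, 0.58 and 0.99 (fitted 0.77 ± 0.10), and AT3G15720 had 1.05, 0.48, 0.43 and 1.01 (fitted 0.74 ± 0.11). In both, as in UGT74D1, the arrays split by dye orientation but stayed above 0. AT3G07470 was fitted at 0.45 ± 0.06 and AT2G27240 at 0.52 ± 0.08. The unnamed probes A006849_01 (1.61, 1.21, 1.52 and 1.87) and A019795_01 (0.87, 1.12, 1.74 and 1.45) had the lowest adjusted p among the unnamed rises, 7.81e-05 and 0.00808 in limma.

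AT2G27240 lies next to CLV3 in RefSeq gene order. CLV3 encodes the peptide that restricts the stem-cell pool of shoot and floral meristems, and its ratios were 0.32, 1.13, 0.61 and 0.23. All were positive, with replicate 2 the highest, and the fitted 0.57 ± 0.15 did not pass the adjusted threshold (adjusted p = 0.237, limma). CLV3 was the only 1 of 11 listed meristem and boundary genes with a named probe.

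Of 6973 adjacent gene pairs with both members measured, 74 had both at an unadjusted p under 0.05. Over all probes tested, 5.1% were lower and 4.57% were higher at that threshold. The number of such pairs to be had from these shares alone was not worked out, so no excess of pairs is claimed. In 32 of these both were lower, in 14 both were higher, and in 28 they pointed in opposite directions. No pair had both members called. AT3G01230, AT3G01240 and AT3G01250 formed a run of neighbours with fitted ratios of -1.53, -3.18 and -3.20, and KIN1 and KIN2, neighbouring cold-induced genes, had -0.79 and -0.72.

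Beyond the calls, 20 named genes with 4 values of 1 sign and a fitted size of at least 1 came closest to the threshold. REM22, a member of the REM family of B3 DNA-binding proteins, led them with -0.84, -2.10, -2.11 and -2.02. Replicates 2 to 4 lay close together, while replicate 1 was less negative, and the fit gave -1.77 ± 0.27 (adjusted p = 0.0526, limma). BSMT1, a methyltransferase that makes methyl benzoate and methyl salicylate, had -2.03, -0.77, -1.11 and -1.30 (fitted -1.30 ± 0.24, adjusted p = 0.0986, limma). FACT, an acyltransferase that joins caffeic acid to fatty alcohols, had -1.96, -0.39, -0.84 and -1.27 (fitted -1.11 ± 0.22, adjusted p = 0.125, limma).

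Only 2 of those 20 had positive ratios, AT3G49270 (2.44, 1.16, 1.14 and 0.67) and AT2G28220 (0.65, 1.72, 1.26 and 1.44). The most negative were AT3G01240 (-3.18, -2.68, -2.66 and -4.19) and AT3G01270 (-3.07, -2.40 and -2.29 in replicates 1 to 3). As in VGDH1, replicate 4 was the lowest array of both. Their adjusted p-values from limma were 0.0846 and 0.0639. AT3G56180, AT5G62750, AT1G66850, AT3G58000, AT3G57720, AT4G19620, AT5G45880, AT1G55450, AT3G28750, AT1G13670 and AT2G43230 make up the rest, with fitted ratios from -2.49 to -1.03.

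Genes grouped by role showed where the ratios lay for the organs that ap3 lacks. For comparison with the list counts, 5.1% of all probes tested were lower and 4.57% higher at an unadjusted p under 0.05. Of 8 genes listed for the B function and its targets only 2 were measured. UFO, an F-box protein that helps LEAFY to activate AP3, had 0.23, 0.29, -0.06 and 0.29. BPEp, a bHLH factor that limits petal size, had -0.27, 0.03, 0.06 and -0.16. Neither departed from 0 beyond the spread between arrays. None of the 10 listed genes of the other floral identity functions had a named probe.

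The early anther list had 5 measured genes, none called, with 3 lower and 1 higher at an unadjusted p under 0.05. SPL, the regulator that starts sporocyte formation and is itself mutated in nzz, had -1.01, -0.26, -0.38 and -0.21. EMS1, the receptor kinase through which tapetal cells are specified, had -0.41, -0.01, -0.34 and -0.49. All arrays of both genes were negative, with fitted ratios of -0.47 ± 0.12 (adjusted p = 0.219, limma) and -0.32 ± 0.08 (adjusted p = 0.231, limma). ROXY2, a glutaredoxin needed for anther lobes together with ROXY1, spread from -0.07 in replicate 2 over -3.10 and -4.36 to the limit in replicate 4. ROXY1 had -0.70, 0.23, -0.13 and -0.41. JAG, a zinc finger protein of lateral organ growth, had 0.22, 0.55 and 0.08 in replicates 1, 2 and 4, but lay at the positive limit in replicate 3. Its fitted 1.87 ± 0.83 therefore rests on that 1 array.

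The tapetum was represented by 9 measured genes in 2 lists. Both lists had negative medians, -1.89 for the 4 transcription factors and -1.30 for the 5 enzymes and secreted products, beside 0.02 over all probes tested. None of the 9 was called, and 6 were lower at an unadjusted p under 0.05. AMS, the bHLH factor that directs tapetal and pollen wall genes, had -4.33, -1.14, -0.38 and 0.23 (fitted -1.40 ± 0.61, adjusted p = 0.509, limma). The arrays thus ran from a strongly negative value in replicate 1 to a value above 0 in replicate 4. The other transcription-factor loci of the list, which the gene table carries without symbols, were AT2G31210 (-4.25, -1.09, -3.84 and -1.35), AT2G31220 (-2.40, -0.78, -1.36 and -0.39) and AT1G06170 (-2.65, -0.39, the limit and 0.22).

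SWEET8, a sugar carrier needed for the microspore wall, had -3.13, -0.38, -2.61 and -1.17 (fitted -1.82 ± 0.40, adjusted p = 0.149, limma). ATA27, a tapetal beta-glucosidase, had -5.50, -1.27, -1.24 and 1.31, and the anther gene ATA20 had -4.22, -0.25, -0.28 and -0.45. Here again replicate 1 was by far the lowest. UND, an aspartic protease of the tapetum, was fitted at -0.28 ± 0.86. SHT, the tapetal enzyme that joins hydroxycinnamic acids to spermidine, reached both limits on different arrays and had no usable size. Replicate 1 held the lowest value in 7 of the 9 tapetal genes, and also in 5 of the 7 meiosis genes described next, beside 26.1% of all probes.

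Meiosis genes lay close to 0. None of 7 measured genes had an unadjusted p under 0.05 in either direction, none was called, and their median was -0.05. ZYP1a, a protein of the synaptonemal complex, had -0.87, -0.25, -0.21 and 0.25. SWI1, needed for sister chromatid cohesion, had -0.64, 0.51, 0.71 and 0.18, while the meiotic cyclin SDS was fitted at 0.10 ± 0.09 and the recombination factor ATMND1 at 0.05 ± 0.10.

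The mature pollen list had 9 measured genes of 14, of which VGD1 was called and 4 were lower at an unadjusted p under 0.05. Its median was -0.56. ACT12, an actin of late pollen, had -0.59, -0.86, -0.46 and -0.34, all below 0 (fitted -0.56 ± 0.20, adjusted p = 0.416, limma). AT4G33970 had -0.01, -0.76, -0.18 and -1.66. Replicate 4 was the lowest array in 5 of the 9 pollen genes and in 1 of the 9 tapetal genes, beside 30.8% of all probes measured on 4 arrays.

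Petal genes gave small ratios. RBE, a zinc finger protein of the second whorl, had -0.04, -0.30, -0.43 and -1.12, all below 0 (fitted -0.47 ± 0.26, adjusted p = 0.628, limma). PTL, a trihelix factor of the perianth, was fitted at -0.01 ± 0.14. AT5G44630 is on this list but has no symbol in the gene table, and whether it marks petals was not tested. It had 0.70, 0.52, 0.37 and 0.31, all above 0 (fitted 0.48 ± 0.14, adjusted p = 0.301, limma). None of the 4 measured genes of this list was called.

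Among carpel and ovule genes, SPT stood highest. It is a bHLH factor of the carpel margins, and its ratios were 0.64, 0.35, 0.24 and 0.45. Every array was positive, and the fitted 0.42 ± 0.08 had an adjusted p of 0.104 from limma. ALC, its close relative in the fruit valve margin, was fitted at 0.08 ± 0.10, and INO, a YABBY factor of the outer integument, at -0.06 ± 0.14. YAB3, a YABBY factor of the abaxial side of lateral organs, had 0.36, 0.78, 0.24 and 0.20 (fitted 0.40 ± 0.09, adjusted p = 0.183, limma), whereas the adaxial factor PHV was fitted at 0.05 ± 0.09.

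**Figure D2:**
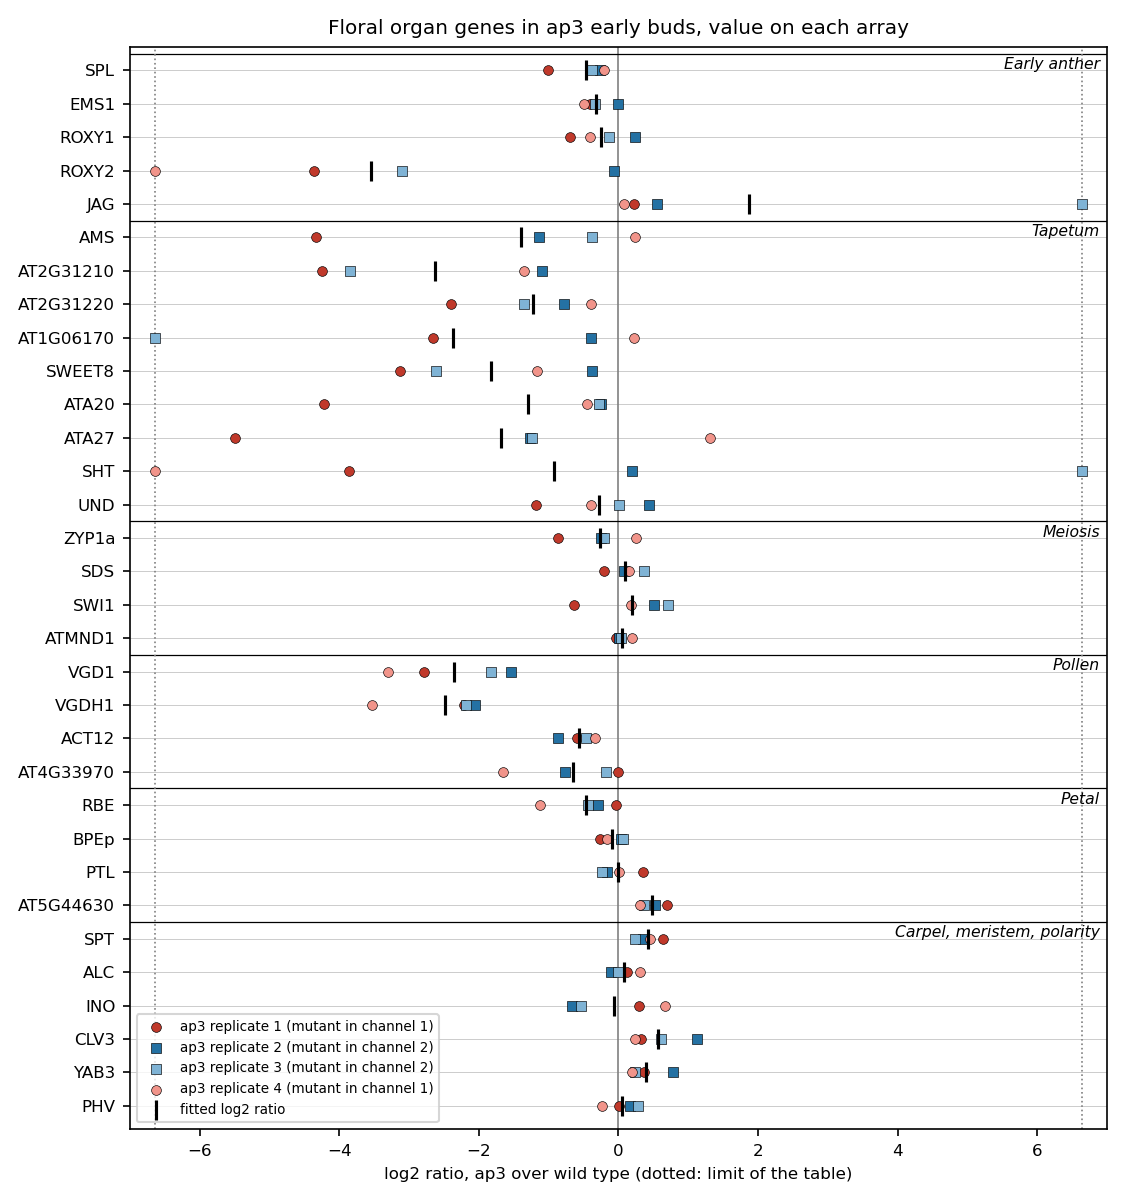
Log2 ratio of ap3 over wild type (horizontal axis) of genes listed for floral organs and tissues, 1 row per gene, with symbols for the 4 arrays as in the legend and a bar at the fitted ratio. Replicate 1 is far to the left in AMS, ATA20 and ATA27, replicate 4 in VGDH1, and points on the dotted lines are at the limit of 6.64.

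The difference between arrays in anther genes was followed beyond the short lists, with groups of probes fixed by their nzz and ms1 results. The 3 mutants were fitted together and shared their error estimate. The fitted ap3 ratios did not set these groups, but the spread of the ap3 arrays entered the error behind the nzz and ms1 calls. A group of 284 probes was called at least 2-fold lower in nzz and was not lower in ms1 (not called, ratio above -0.50). In ap3 their median ratios were -1.08, -0.10, -0.07 and -0.17 in replicates 1 to 4. Replicate 1 alone was shifted by over 1 log2 unit, with 84.2% of the probes below 0, against 54.9%, 55.3% and 67.6% in the others. It was the lowest of the 4 arrays for 183 of the 282 probes with 4 values (64.9%).

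A second group of 325 probes was called at least 2-fold lower in nzz and was also called lower in ms1. Their ap3 medians were -0.43, -0.29, -0.28 and -0.25 in replicates 1 to 4, and 72.6%, 72.6%, 71.4% and 67.4% lay below 0. Over all probes tested, 47.6%, 46.6%, 47.4% and 52.1% lay below 0. The lowest of the 4 arrays was replicate 1 for 31.7% of the group and replicate 4 for 37.5%, both with ap3 RNA in channel 1, and replicates 2 and 3 for 16.2% and 14.6%; over all probes the shares were 26.1%, 30.8%, 20.4% and 22.6% in the same order. In this group 4 probes were called lower in ap3, and 7 in the group of 284, beside 32 of all 26017 probes tested (0.123%). Calls in the 3 mutants share their error estimate, so probes with a small error are favoured both in the groups and among the ap3 calls.

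**Figure D3:**
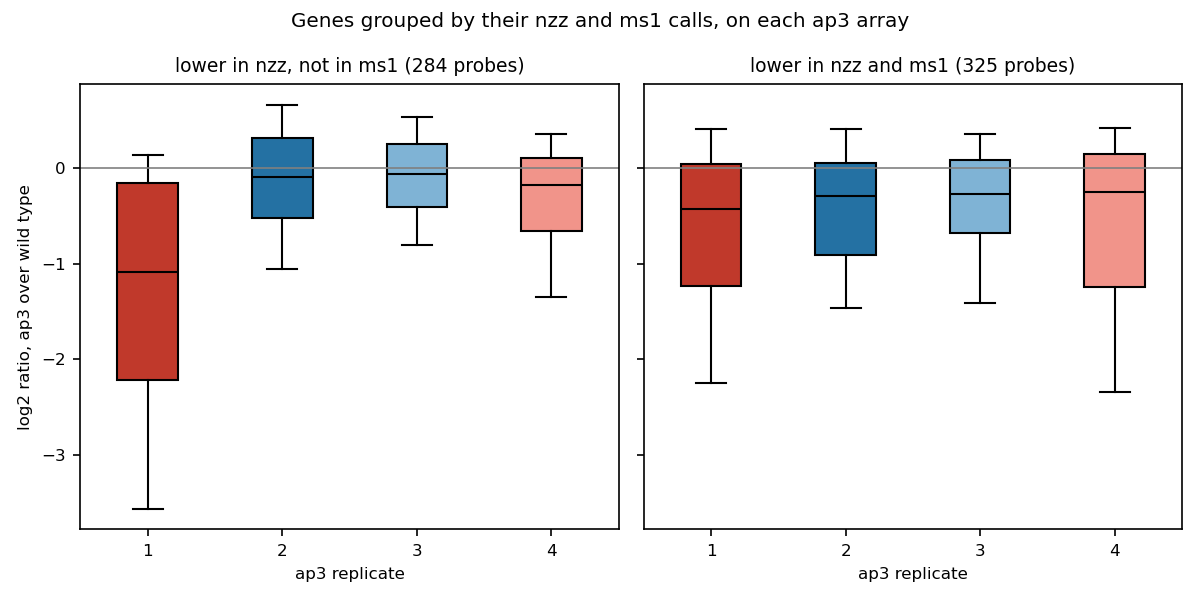
Log2 ratio of ap3 over wild type (vertical axis) on each ap3 array for probes lower in nzz but not in ms1 (left) and lower in both (right). Boxes span the quartiles with the median as a line and whiskers reach the 10th and 90th percentiles; the left box of replicate 1 has its median at -1.08, while the other arrays are near 0.

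The ap3 effects were set against those in nzz and ms1 by the test of the difference itself. Bud stages differed between these tissues (up to early stage 10 in ap3, up to stage 13 in nzz and ms1), so mutant and stage range cannot be told apart. The ap3 effect differed from the nzz effect at 756 of 26016 probes (2.91%), with ap3 higher in 573 of them and lower in 183. Differences from ms1 numbered 84 (0.323%), with ap3 higher in 47 and lower in 37. Without one ap3 array in turn these counts were 258 to 751 for nzz and 16 to 65 for ms1. Of the 28 named genes called in ap3, 16 differed from nzz, 12 from ms1 and 10 from both. These genes were chosen by their ap3 ratio and error, which also enter each difference. A larger share than over all probes therefore follows in part from the choice.

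Falls in ap3 that differed from both mutants included AT3G18900, THI2.1, AT2G28140, AT3G10720, AT5G49120, AT3G16590 and AT1G64380. THI2.1 had a ratio of -1.51 in ap3, beside 0.46 ± 0.20 in nzz and 0.28 ± 0.20 in ms1. The ap3 effect minus the nzz effect was -1.96 ± 0.28 (adjusted p = 0.0104, limma), and minus the ms1 effect it was -1.78 ± 0.28 (adjusted p = 0.0457, limma). AT2G28140 went the other way in nzz, where it was called higher at 0.90 ± 0.11, against its fall of -1.06 in ap3; the difference was -1.96 ± 0.16 (adjusted p = 0.000862, limma). AT5G49120 likewise had 0.36 ± 0.08 in nzz and -0.75 in ap3, a difference of -1.10 ± 0.12 (adjusted p = 0.00368, limma).

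AT1G44970 also differed from both, with -3.57 in ap3 beside -1.55 ± 0.29 in nzz and 0.31 ± 0.29 in ms1. Its fall was larger in ap3 than in nzz by 2.02 ± 0.41 in size, since the difference was -2.02 (adjusted p = 0.0376, limma). The unnamed A019459_01 had ratios near 0 in the other mutants, -0.14 ± 0.07 in nzz and 0.05 ± 0.07 in ms1. Its differences, -2.05 ± 0.10 and -2.24 ± 0.10, had adjusted p-values of 8.53e-05 and 5.82e-05 from limma. REM22 had 0.11 ± 0.27 in nzz and 0.24 ± 0.27 in ms1, and it differed from nzz by -1.88 ± 0.38 (adjusted p = 0.0371, limma) but not from ms1 at the threshold (adjusted p = 0.074).

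Both higher calls with a symbol differed from the 2 other mutants. ARR15 had 0.99 in ap3, beside 0.28 ± 0.11 in nzz and -0.02 ± 0.11 in ms1. The differences were 0.71 ± 0.15 (adjusted p = 0.0465, limma) and 1.00 ± 0.15 (adjusted p = 0.0444, limma). UGT74D1 had 0.67 in ap3, beside -0.10 ± 0.09 in nzz and -0.40 ± 0.09 in ms1, with differences of 0.77 ± 0.13 and 1.07 ± 0.13 (adjusted p = 0.0165 and 0.0158, limma).

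Genes of the pollen list and others called in all mutants were compared next. VGD1 was called lower in nzz (-4.02 ± 0.35) and ms1 (-3.43 ± 0.35) as well, and its differences of 1.66 ± 0.49 and 1.07 ± 0.49 did not pass the test (adjusted p = 0.125 and 0.573, limma). ACT12 had -0.56 in ap3, beside -4.14 ± 0.20 in nzz and -2.69 ± 0.20 in ms1. For this gene the difference did pass, at 3.58 ± 0.29 from nzz (adjusted p = 0.000824, limma) and 2.13 ± 0.29 from ms1 (adjusted p = 0.0264, limma). AT3G07820 had -2.84 in ap3 beside -5.14 ± 0.36 in nzz, a difference of 2.31 ± 0.51 (adjusted p = 0.049, limma).

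Genes lower in nzz but not in ms1 included AT1G73890 and AT1G33430. AT1G73890 had -2.40 in ap3, -2.45 ± 0.25 in nzz and 0.79 ± 0.25 in ms1; ap3 and nzz differed by 0.05 ± 0.36, and ap3 and ms1 by -3.19 ± 0.36 (adjusted p = 0.0111, limma). AT1G33430 had -2.62 in ap3, beside -5.05 ± 0.36 in nzz and -0.06 ± 0.36 in ms1, and it fell less in ap3 than in nzz (difference 2.44 ± 0.51, adjusted p = 0.0417, limma). AMS had -1.40 in ap3 and -5.32 ± 0.61 in nzz, a difference of 3.92 ± 0.86 (adjusted p = 0.0477, limma). BPEp was lower in nzz (-1.28 ± 0.15) and ms1 (-0.86 ± 0.15) but had -0.09 in ap3, where it differed from nzz by 1.19 ± 0.22 (adjusted p = 0.0236, limma).

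**Figure D4:**
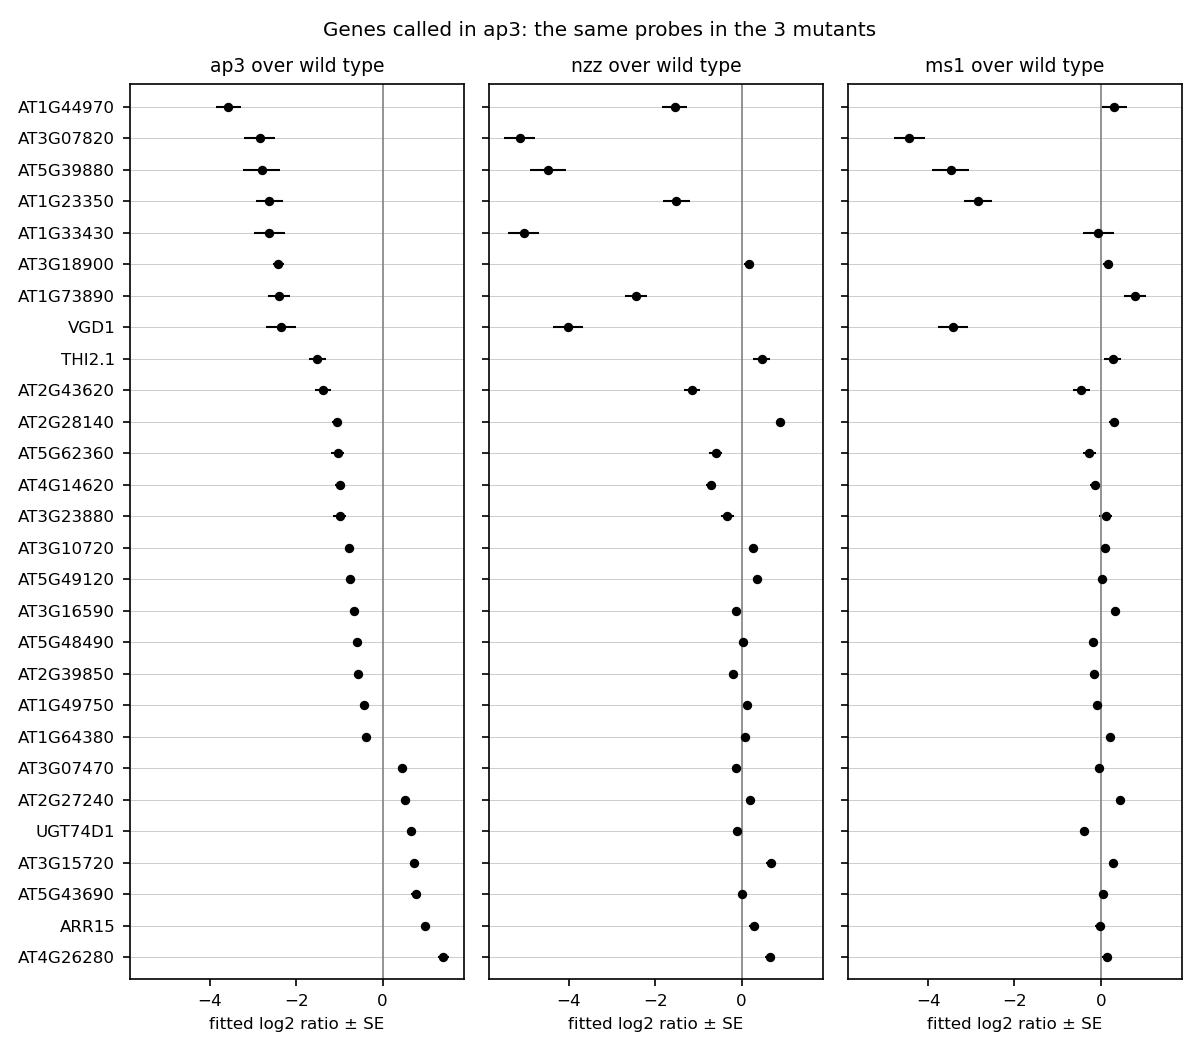
Fitted log2 ratio ± SE (horizontal axes) of the 28 named genes called in ap3, in ap3 (left), nzz (middle) and ms1 (right), each over its wild type, with 4 arrays per mutant. AT3G07820, AT5G39880, AT1G23350 and VGD1 are negative in all 3 panels, while AT3G18900, THI2.1, ARR15 and UGT74D1 leave 0 in ap3 and stay nearer to it in the others.

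The family lists that follow were matched almost only by gene symbol, so a locus without a symbol, as most called genes are, is usually in none of them, and their counts do not cover whole families. The same shares over all probes tested, 5.1% lower and 4.57% higher at an unadjusted p under 0.05, stand beside the counts of each family. Among the 7 pectin enzymes listed VGD1 was called, and the list median was 0.03. Of 31 expansins and xyloglucan enzymes none was called, 1 was lower and 1 higher at an unadjusted p under 0.05, and the median was 0.00. EXPA24, an alpha-expansin of the wall-loosening family, had -4.31, 0.03, -1.38 and -3.29, with replicate 2 near 0 (fitted -2.24 ± 0.48, adjusted p = 0.148, limma). EXLA2, an expansin-like protein, had 0.41, 0.43, 0.39 and 0.37, a narrow range above 0 (fitted 0.40 ± 0.12, adjusted p = 0.298, limma). Of 10 genes of cellulose and hemicellulose synthesis 2 were higher at an unadjusted p under 0.05, among them CSLC5 of xyloglucan backbone synthesis at 0.19 ± 0.08.

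The sugar carriers had 18 measured members, with none called, 4 lower and 1 higher at an unadjusted p under 0.05, and a median of -0.15. Beside SWEET8, the glucose carrier SWEET1 had -1.01, -0.06, -0.46 and -0.61 (fitted -0.53 ± 0.14), and SWEET4 had -4.37, -1.31, -2.04 and 0.28 (fitted -1.86 ± 0.60). SWEET10 had 0.43, 0.33, 0.61 and 0.33 (fitted 0.42 ± 0.14), and SWEET9, the sucrose carrier of nectaries, was fitted at -0.40 ± 0.70. Thus members of the same carrier family lay on both sides of 0, and none passed the adjusted test.

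The UDP-glycosyltransferase list had 53 measured genes. Apart from UGT74D1 none was called; 4 were lower and 4 higher at an unadjusted p under 0.05, and the median was 0.08. UGT76C2, which glucosylates cytokinins, had -0.03, -0.28, -0.40 and -0.33 (fitted -0.26 ± 0.07), and UGT88A1 was fitted at -0.31 ± 0.06. The flavonol glycosyltransferases UGT78D2 and UGT78D3 had fitted ratios of 0.54 ± 0.18 each, with all 4 arrays positive. The 3 measured flavonoid genes lay above 0: DFR, the reductase on the way to anthocyanins, had 3.74, 1.08, -0.26 and 0.91 (fitted 1.37 ± 0.60), and UGT78D1 was fitted at 0.35 ± 0.25. None of them had an adjusted p under 0.05.

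Photosynthesis genes had small negative ratios. Of 8 measured, 7 were below 0 and 3 were lower at an unadjusted p under 0.05, with a median of -0.17 and no call. Over all 26017 probes tested, 11880 were below 0 and 5.1% were lower at that threshold. PSAN, a subunit of photosystem I, had -0.33, -0.36, -0.25 and -0.23, a narrow range (fitted -0.29 ± 0.08, adjusted p = 0.222, limma). PSBW of photosystem II was fitted at -0.35 ± 0.10 and PSAE-1 of photosystem I at -0.16 ± 0.07. The antenna protein gene LHCB4.1 had -0.24 ± 0.11, and another of its probes gave -0.29.

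Proteases, stress genes and small peptides each had members with negative ratios short of the adjusted threshold. Of 42 subtilases and other proteases 3 were lower and 2 higher at an unadjusted p under 0.05, near the 5.1% and 4.57% of all probes. The serine carboxypeptidase-like genes scpl31 (-1.30, -1.62, -0.42 and -0.98) and scpl38 (-0.49, -1.13, -0.83 and -1.13) were negative on all arrays, while scpl50 was fitted at 0.37 ± 0.12. Of 4 measured cold and drought genes KIN1 had -1.03, -0.57, -0.80 and -0.73, and KIN2 had -1.23, -0.32, -0.52 and -0.80. COR47 and COR15A, of the same list, were fitted at -0.44 ± 0.21 and 0.38 ± 0.84. RALFL25, a secreted peptide of the rapid alkalinization factor family, had -0.26, -1.59, -0.70 and -0.98 (fitted -0.88 ± 0.21).

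No measured member of the transcription-factor lists was called, and the MYB, NAC, AP2/ERF, homeobox and TCP lists held 1 measured gene each. Of 57 MADS-box genes 2 were lower and 2 higher at an unadjusted p under 0.05, with a median of -0.06. AGL18, a MADS-box factor expressed in pollen, had -1.25, -0.19, -0.07 and -0.36, and AGL41 had -0.02, 0.34, 0.54 and 0.48. AGL82 lay at the positive limit in replicates 2 and 3 and at 0.04 and -0.28 in the others, so its value follows the dye orientation. Of 9 WRKY genes, WRKY42 had 0.41, 0.28, 0.77 and 0.51, all positive (fitted 0.49 ± 0.09, adjusted p = 0.0938, limma). BZIP61 had 0.54, 0.27, 0.53 and 0.20 (fitted 0.38 ± 0.10), and the other 13 of 14 measured bZIP genes did not reach an unadjusted p of 0.05.

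Growth genes had small ratios. Of 6 cell-cycle genes AUR2, an aurora kinase of cytokinesis, had 0.52, 0.20, 0.15 and 0.18 (fitted 0.26 ± 0.10), and its relatives AUR1 and AUR3 were fitted at 0.18 ± 0.08 and -0.07 ± 0.12. The histone HTB2 had 0.54, -0.70, -0.64 and 0.50, so its sign followed the dyes and its fitted ratio was -0.07 ± 0.15. Of 17 auxin genes 1 was higher at an unadjusted p under 0.05, YUC2 of auxin synthesis, with 0.32, 1.04, 0.25 and -0.02. The median of the auxin list was -0.00, and no gene of the list was called. Several other lists had no called gene among their measured members either, with medians from -0.13 to 0.21. They were cytochrome P450 genes (24 measured), GH9 glucanases with a few chitinases (19), cytoskeletal genes (18), glutathione S-transferases (14) and other small secreted proteins (13). The rest were bHLH factors (11), glutamate receptor channels (9), histones (8), calcium sensors (8) and peroxidases (6). The called loci without a symbol were in none of the lists, so a family may hold a called gene that its list lacks.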

How the data were processed

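The authors deposited 1 table of ratios per array, read here as log10 values because none lies beyond -2 or 2; the base is inferred. How the scans were read, background-corrected and normalized is not given in the sources used here. Per the labels, RNA was amplified to antisense RNA and hybridised in 2 colours with the dyes switched between replicates. Values were multiplied by 3.32 and turned to mutant over wild type; 450 control lines were left out, and 21 arrays of an ms1 stage series were not used. The deposited ratios were read as already turned to 1 direction rather than as dye ratios, which is inferred. On the control lines, 97.5% and 92.8% of the deposited values were positive in ap3 replicates 1 and 4 but 4.29% and 5.96% in replicates 2 and 3, so their sign followed the dye orientation.

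Probes were named through the platform annotation and RefSeq genes (assembly TAIR10.1): 13960 probes had 1 gene, none several, and 12130 are unnamed here. The 12 arrays of ap3, nzz and ms1 were fitted with limma 3.58.1 in R 4.3.3, with 1 coefficient per mutant and 1 dye term. A probe needed 3 of 4 ap3 values, and calls had a Benjamini-Hochberg adjusted p under 0.05. The dye term passed that threshold at 5193 probes. On simulated ap3 data of 20433 probes, 79 of 100 changes of log2 size 1 and 95 of 100 of size 2 were recovered, with 7 false calls. The simulated noise was normal and independent between probes and arrays, for probes without missing or limited values. Shifts of many probes together on 1 array, as seen in the real data, were not simulated, so these figures check the code and not the reliability of the calls. The number of arrays limits the precision.

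Named were every called gene with a name, up to 4 genes of each list by unadjusted p (all in lists of up to 6), 20 further genes nearest the threshold, and 2 unnamed probes in each direction; other members are given as counts. Where a gene had several probes, the one with the most values stood for it in the lists. The genes and lists were chosen with earlier results of these data known. Residuals of same-numbered ap3 arrays and arrays of the other mutants correlated at 0.115 to 0.234 where the dye orientations were opposite. Where the orientations were the same, the correlations ran from -0.199 to -0.034. They thus followed the dyes, so whether the numbers pair samples could not be read from them, and the main fit used no pairing. Alternatives covered the dye term, the reading of the values, the arrays in the fit, centring, scaling, limited values, the number of values needed and each array left out.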

Additional observations from a re-analysis of the deposited data

Results flagged for a closer look

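Of 202 named genes and probes, 14 had 1 ap3 array far from the other 3 by Dixon's criterion; chance gives about 1 in 20. The array apart was replicate 1 in 7 of them, replicate 3 in 5, and replicates 2 and 4 in 1 each. Replicate 1 was the lower in ATA20 (-4.22), CML23 (-2.49), ZIP6 (-1.72), AT5G48490 (-0.90) and TCP15 (-0.38), and it was the higher in REM22 (-0.84) and AUR2 (0.52). CML23 is a calmodulin-like calcium sensor, ZIP6 a metal carrier and TCP15 a growth-regulating transcription factor. In replicate 3, GH3.1, IRX15 and JAG lay at the positive limit (6.64), AT5G62360 was the lowest (-1.52) and PDF1.2 the highest (0.73). VGDH1 was lowest in replicate 4 (-3.53), and UGT78D2 highest in replicate 2 (0.99). Of these genes only AT5G62360 and AT5G48490 were called in ap3, and all 4 of their arrays were below 0.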

How the results depend on the processing

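The count of 46 ap3 calls became 214 with arrays centred and scaled to one spread, 107 with probes holding a limited value left out, 69 with limited values as missing, 24 with no dye term, and 27 with the 4 ap3 arrays fitted alone with the dye term; centring, the robust prior, needing all 4 values and the replicate block (47 calls) stayed within 1.5 times. The 27 calls of the ap3 arrays alone with the dye term were 10 lower and 17 higher, and only 2 were among the 46. The 4 arrays alone without the dye term gave 0 limma calls, with 1755 probes at an unadjusted p under 0.05. The 12-array fit with no dye term had 1686 such probes. Values read as dye ratios gave 437 calls and none of the 46. All 46 kept their direction under every other alternative, which was largely set in advance since each had 1 sign on all 4 arrays. Of the 28 named calls, 28 were kept without limited probes, 27 with the replicate block, 25 with scaling, 20 with centring, 19 with the robust prior, 12 with no dye term and 0 with the ap3 arrays alone, while leaving out replicates 1 to 4 kept 6, 4, 3 and 7. Leaving out each array gave 10 to 24 calls. Differences from nzz (756) numbered 445 with no dye term, 862 with the replicate block and 258 to 751 without each ap3 array; those from ms1 (84) numbered 54, 106 and 16 to 65, and 245 without limited probes. Whether the array numbers pair samples was not settled. Values read as dye ratios turned the sign of THI2.1 (0.48), AT2G43620 (0.09), AT5G62360 (0.18), AT5G49120 (0.19), AT3G16590 (0.08), AT1G49750 (0.04), AT1G64380 (0.00), AT3G07470 (-0.08), A019795_01 (-0.13), REM22 (0.34), AT3G56180 (0.38), AT5G62750 (0.02), AT2G28220 (-0.22) and AT2G43230 (0.10). Without replicate 2 the list medians moved to 0.12 (meiosis), 0.08 (MADS-box) and 0.20 (auxin). Leaving out limited probes, an alternative chosen after seeing the data, left the ap3 medians of the nzz groups at -0.33 (lower in nzz, not in ms1) and -0.23 (lower in both), beside -0.33 and -0.26. The causes were not tested.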
